A study of Mus musculus with 8 samples.

Results

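The microRNAs (miRNAs) miR-26a and miR-26b (mmu-miR-26a and mmu-miR-26b on the array) were followed in cortical basal progenitors from mouse embryos of day 13 (E13) and day 16 (E16). These progenitors, which leave the ventricular surface before they divide and give rise mostly to neurons, were isolated by fluorescence-activated sorting. The 2 miRNAs were taken by name from the 611 mouse miRNAs that the array carries. Total RNA from each of 8 samples, 4 per stage and all labelled wild type, was hybridised to a one-colour Agilent miRNA array of its own. The submitters describe 4 biological replicates per stage from 3 litters, so some replicates of a stage may share a litter. p-values therefore measure the spread between these samples. Sorting purity, strain and sex are not given in the sources used here.

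miRNAs are short RNAs that bind messenger RNAs, mostly through their seed (bases 2 to 8), and lower their translation or stability. The miR-26 miRNAs are intronic: their hairpins lie inside the Ctdsp genes, which encode small phosphatases of the RNA polymerase II C-terminal domain. These phosphatases act with the repressor REST to keep neuronal genes silent in progenitors and non-neuronal cells, and the messenger RNAs of the host genes are themselves reported targets of miR-26. The host messenger RNAs were not measured on these arrays.

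The mature sequences are shown because both miRNAs have the same seed, in capitals, and differ only outside it (RefSeq, GRCm38.p6).
mmu-miR-26a-5p: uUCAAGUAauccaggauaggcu
mmu-miR-26b-5p: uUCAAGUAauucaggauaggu
miR-26a is 22 bases long and miR-26b 21. Counted from the 5′ end of miR-26a, 19 of the 21 shared positions were identical, and the substitutions from miR-26a to miR-26b were C11U and C21U. Among 1679 mature mouse miRNA names in the RefSeq table, these were the only 2 with the seed UCAAGUA.

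The hairpins are shown because they place each miRNA in its host gene, with the mature miRNA in capitals (RefSeq, GRCm38.p6).
Mir26a-1: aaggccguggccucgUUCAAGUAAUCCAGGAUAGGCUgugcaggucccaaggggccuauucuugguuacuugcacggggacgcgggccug
Mir26a-2: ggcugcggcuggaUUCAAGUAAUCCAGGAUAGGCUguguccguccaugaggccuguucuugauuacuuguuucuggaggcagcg
Mir26b: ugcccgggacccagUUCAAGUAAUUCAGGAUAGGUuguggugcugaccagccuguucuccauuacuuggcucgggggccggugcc
In the RefSeq annotation, Mir26a-1 lies within Ctdspl on chromosome 9, Mir26a-2 within Ctdsp2 on chromosome 10 and Mir26b within Ctdsp1 on chromosome 1, each on the strand of its host. Both miR-26a hairpins give the same mature miRNA, so a miR-26a signal cannot be divided between Ctdspl and Ctdsp2. Their opposite arms differ, but the only opposite arm of the family on the array was miR-26b*.

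Each member had 2 probes that differed by 1 base in length, and they are shown because their letters set how far the members can be told apart. Capitals mark the bases that are complementary to the probe's own miRNA but not to the other member.
A_54_P4384 (miR-26a): AGcctatcctgGatta
A_54_P2481 (miR-26a): AGcctatcctgGatt
A_54_P2484 (miR-26b): AcctatcctgAattacttga
A_54_P2483 (miR-26b): AcctatcctgAattacttg
All 4 probes paired fully with their own miRNA. The miR-26a probes, of 16 and 15 bases, covered mature positions 7 to 22 and 8 to 22, and 3 of their bases had no complementary base in miR-26b. At positions 11 and 21 these are G opposite U, which can still pair weakly. The miR-26b probes, of 20 and 19 bases, covered positions 2 to 21 and 3 to 21. In miR-26a, 2 of their bases, A opposite C, had no complementary base. How much signal each probe takes from the other miRNA was not tested. In mm9, the build of the file headers, the longer miR-26a probe matched chr9:118940935-118940950 and chr10:126432605-126432620, and the longer miR-26b probe matched chr1:74440900-74440918, an interval of 19 bases for a probe of 20.

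Array brightness differed between samples. The 75th percentile of the signal, taken over the 126 mouse probes that each of the arrays detected (well above background), was lowest at 109 (E16 replicate 4) and highest at 748 (E16 replicate 2), and an array had between 76 and 206 miRNAs well above background. E16 replicate 4 was at the low end of both. Both arms of the miR-9 hairpin, a neural progenitor marker, were detected on all 8 arrays. No marker of erythroid (3 miRNAs), endothelial (2), microglial or other blood (4), mesenchymal (5), epithelial (5) or muscle cells (3) was well above background on any array, and each stood at the lowest level used on all of them. The neuronal markers miR-124 and miR-128 were detected on every array, with log2 differences of -0.07 (SE 0.41) and -0.15 (SE 0.36) between stages, and miR-132 and miR-212 on none. The oligodendrocyte lineage markers were also detected, miR-219 on 4 E13 and 3 E16 arrays and miR-338-3p on 2 E13 and 3 E16 arrays. Neither passed the test. The summed scaled signal of the 4 neuronal markers was 0.711 to 1.02 at E13 and 0.401 to 1.63 at E16. The part of neuronal RNA in the results below was not tested. In bulk RNA, fewer cells with a miRNA and less of it per cell cannot be told apart.

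miR-26a was clearly detected. All 160 of its spots, 20 per array, were well above background. Before any scaling, the brighter miR-26a probe gave a mean processed signal over its spots of 73.3 on E13 replicate 1, 133 on replicate 2, 262 on replicate 3 and 120 on replicate 4. At E16 it gave 461, 496, 182 and 52.7 on replicates 1 to 4. The brightest E16 array thus lay above every E13 array and the dimmest below every one, in the same order as the brightness of the arrays as a whole at E16. Spots within an array differed little, with a coefficient of variation from 2.32% to 8.61% for this probe.

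miR-26b lay nearer to background. Of its 160 spots, 122 were well above it. Its brighter probe gave 11.7, 23.4, 50.7 and 23.7 on E13 replicates 1 to 4 and 92.5, 72.5, 31.2 and 8.26 on E16 replicates 1 to 4, and passed the background limit on 4 arrays at E13 and 3 at E16. The exception was E16 replicate 4, where 3 of 10 spots passed and the spot coefficient of variation reached 26.6%. The dimmer miR-26b probe passed on 6 arrays. The opposite arm, miR-26b*, was not detected: 0 of its 160 spots, from 4 probes, were well above background, and its probe means lay between -2.75 and 1.37.

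**Figure D1:**
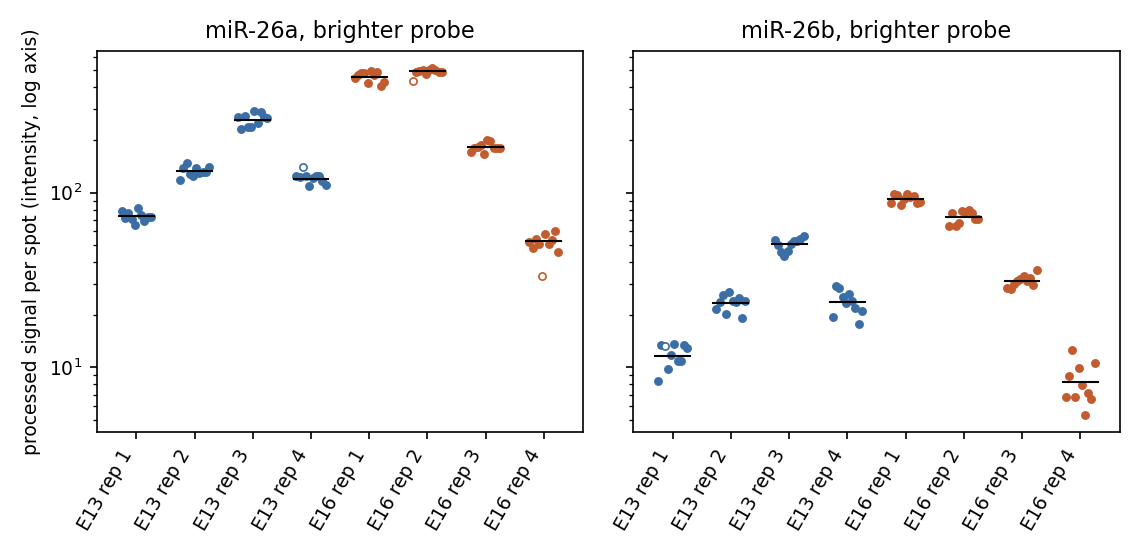
Processed signal of each of the 10 spots of the brighter miR-26a probe (left) and miR-26b probe (right) on each array, on a log axis, with E13 in blue and E16 in orange. Lines are means of the spots used and open circles are spots left out as outliers; E16 replicate 4 has the lowest mean of both miRNAs, 52.7 and 8.26.

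The comparison of E16 with E13 asks whether the level of miR-26 in basal progenitors differs between these days of neuron production. Each array was divided by its 75th percentile and the log2 was taken. Neither member passed the test, although the point estimate of both was higher at E16. Of 153 miRNAs tested in the same way, 11 were higher at E16 and 40 lower (limma adjusted p under 0.05, which is 7.19% and 26.1% of those tested, together 33.3%), and 0 of the 2 members were among them. Of the 2 members, 1, miR-26a, lay under 0.05 before adjustment in the limma fit, as did more than 33.3% of the 153 tested. That share is a lower bound: it holds only the 51 miRNAs that passed after adjustment, and others that did not pass lay under 0.05 too. The unadjusted limit therefore does not set miR-26a apart. Of the 153, 12 had every E16 array above every E13 array (7.84%) and 47 every one below (30.7%), and both members were among those whose stages overlapped.

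The scaled log2 signal of miR-26a was -1.15, -1.26, -0.91 and -1.29 on E13 replicates 1 to 4 and -0.40, -0.59, -0.63 and -1.04 on E16 replicates 1 to 4. E16 replicates 1 to 3 lay above every E13 array, and E16 replicate 4 lay below E13 replicate 3, so the stages overlapped. The means were -1.15 ± 0.18 (SD, n = 4) at E13 and -0.67 ± 0.27 (SD, n = 4) at E16. miR-26a was 1.40-fold higher at E16 (log2 difference 0.48, SE 0.18, 95% confidence interval 0.07 to 0.90), but it did not pass after Benjamini-Hochberg adjustment over the 153 miRNAs (limma adjusted p = 0.069). A two-sided exact permutation test over the 70 assignments of arrays to stages gave p = 0.057, where the smallest possible value is 0.029. Without E16 replicate 4 the difference was 0.61 and passed (limma adjusted p = 0.011), and within slide 3, which holds E13 replicates 3 and 4 and E16 replicate 4, it was 0.06. Within slide 2, which holds E13 replicates 1 and 2 and E16 replicates 2 and 3, it was 0.59 (limma adjusted p = 0.062).

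The scaled log2 signal of miR-26b was -3.80, -3.76, -3.27 and -3.63 on E13 replicates 1 to 4 and -2.72, -3.37, -3.17 and -3.72 on E16 replicates 1 to 4. E16 replicates 1 and 3 lay above every E13 array, whereas E16 replicates 2 and 4 lay within the E13 range. The means were -3.62 ± 0.24 (SD, n = 4) at E13 and -3.24 ± 0.42 (SD, n = 4) at E16. The log2 difference of 0.37 (1.29-fold, SE 0.23, 95% confidence interval -0.16 to 0.90) was within the spread between arrays (limma adjusted p = 0.23, exact permutation p = 0.20, two-sided). Without E16 replicate 1, the highest array, it was 0.20, and without E16 replicate 4, where miR-26b was not well above background, it was 0.53, again without passing (limma adjusted p = 0.063). Within slide 3, where replicate 4 is the only E16 array, its sign turned, to -0.26. Within slide 2 it was 0.51 (limma adjusted p = 0.091).

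**Figure D2:**
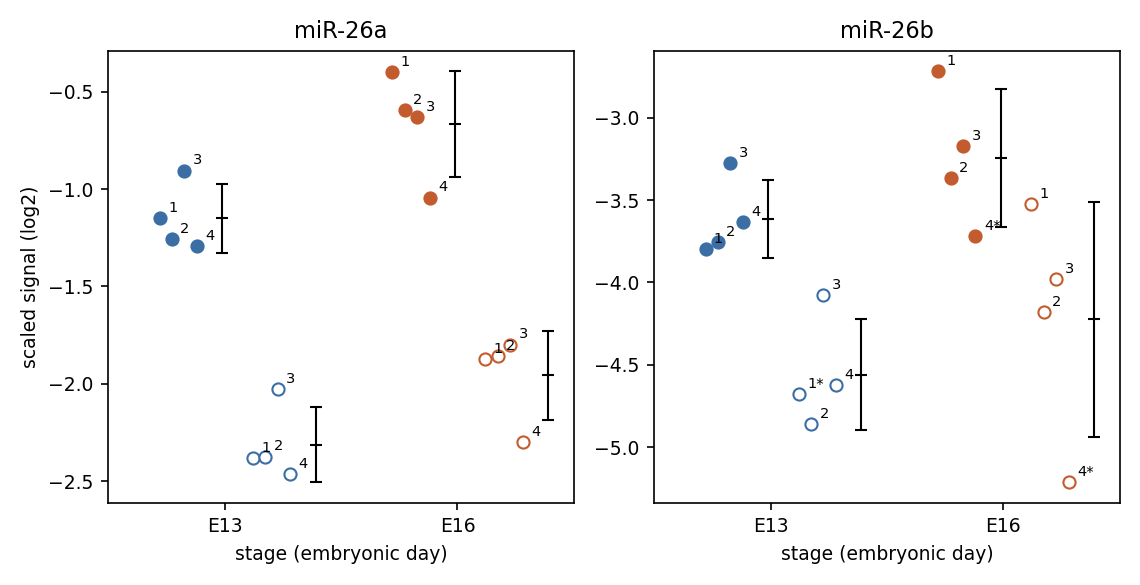
Scaled log2 signal of miR-26a (left) and miR-26b (right) on each array, numbered by replicate, for the brighter probe (filled) and the dimmer probe (open). Bars are mean ± SD of 4 arrays and an asterisk marks a probe not well above background; for miR-26a, E16 replicates 1 to 3 lie above every E13 array and E16 replicate 4 does not.

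The 2 probes of each member gave differences of the same sign, and none of the 4 passed. Among 246 probes fitted in the same way, the longer miR-26a probe differed by 0.48 between stages (limma adjusted p = 0.076) and the shorter by 0.35 (adjusted p = 0.16). The miR-26b probes differed by 0.37 (adjusted p = 0.25) and 0.33 (adjusted p = 0.47). The brighter miR-26a probe exceeded the dimmer by 1.12 to 1.23 on the log2 scale at E13 and by 1.17 to 1.47 at E16, a shift of 0.13 between stages (two-sided exact permutation p = 0.057). The largest of these ratios was that of E16 replicate 1. For miR-26b the shift was 0.04 (p = 0.91, same exact test).

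Both differences moved with the scaling of the arrays. The median log2 difference of all 153 miRNAs was -0.40, and miR-26a lay 0.88 and miR-26b 0.77 above it. When all mouse probes, detected or not, entered the percentile (the all-probe percentile), the median was 0.42, and miR-26a (1.30, limma adjusted p = 0.00083) and miR-26b (1.19, adjusted p = 0.0041) both passed as higher at E16, among 47 higher and 16 lower miRNAs. Relative to the median of all tested miRNAs the members stayed at 0.88 and 0.77. That follows from the scaling, since a new divisor for an array moves its miRNAs alike, and is no measure of stability. Centring on the median of the detected probes gave 0.52 for miR-26a, which passed (adjusted p = 0.024), and 0.41 for miR-26b, which did not. Quantile normalization gave 0.38 for miR-26a and 0.82 for miR-26b, of which miR-26b passed (adjusted p = 0.0097). In the deposited value table, which held 3 of the 10 spots of the brighter miR-26b probe, miR-26a differed by 0.40 and miR-26b by 0.75 (adjusted p = 0.036). Normexp correction gave 0.37 for miR-26a (adjusted p = 0.41) and 0.07 for miR-26b (adjusted p = 0.95). It adds an offset of 50 to each signal, which shrinks the log2 differences of dim probes. The brighter miR-26b probe read 8.26 to 92.5 before scaling. For dim miRNAs, a call lost under normexp correction, here or below, is therefore a weak check. With the slide as a fixed block miR-26a was at 0.38 (adjusted p = 0.18) and miR-26b at 0.20 (adjusted p = 0.51). Slide 1 holds E16 replicate 1 alone, the highest array of both members, so that array does not enter the stage difference of this fit. Over these and the other alternative settings the members lay above the median of the tested miRNAs, by 0.47 to 0.91 for miR-26a and by 0.27 to 0.90 for miR-26b.

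**Figure D3:**
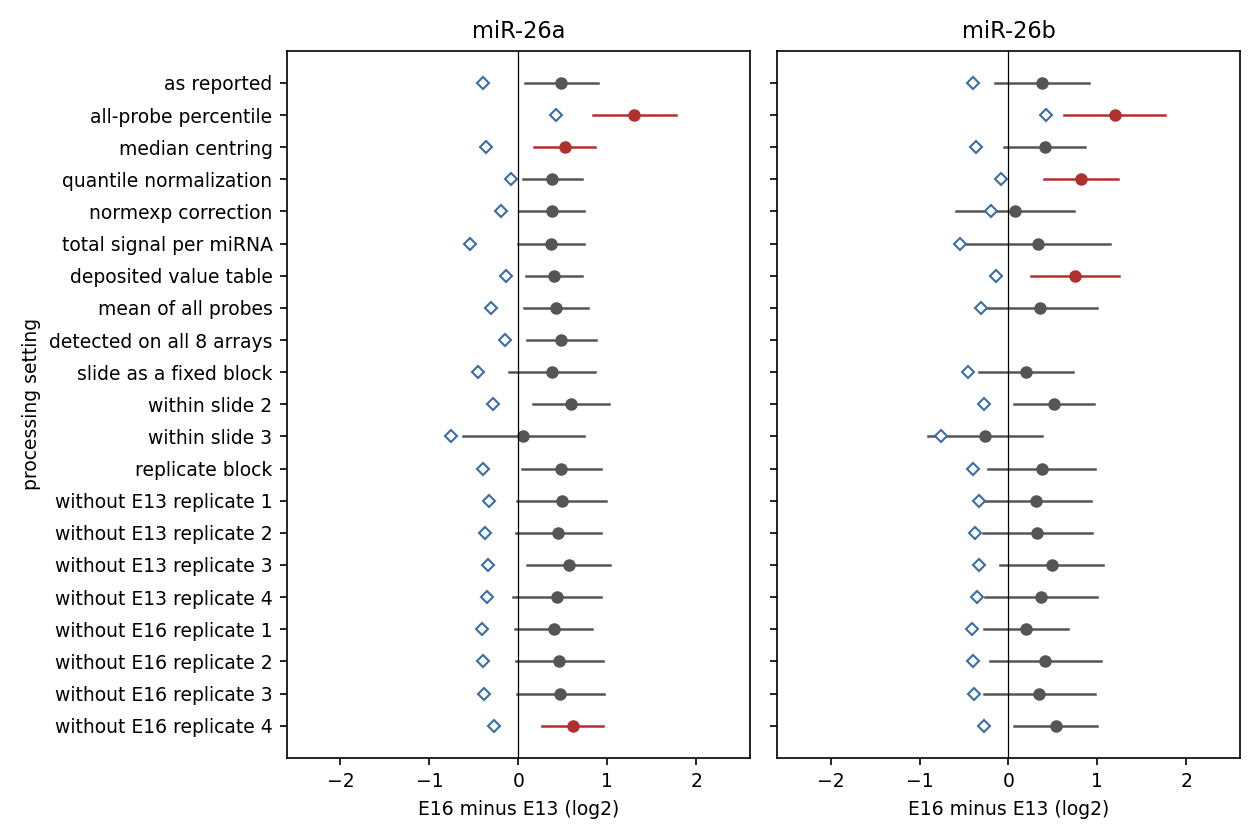
Log2 difference, E16 minus E13, of miR-26a (left) and miR-26b (right) under each processing setting, with its 95% confidence interval; red marks a limma adjusted p under 0.05. Open diamonds are the median difference of all miRNAs tested in that setting, which moves from -0.40 to 0.42 under the all-probe percentile. The distance from diamond to point stays at 0.88 and 0.77 there, because a new divisor moves both alike. It is 0.47 for miR-26a under quantile normalization and 0.27 for miR-26b under normexp correction.

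Whether the 2 members changed differently was tested within arrays, where the array's scaling cancels. The log2 signal of miR-26b minus that of miR-26a was -2.65, -2.50, -2.37 and -2.34 on E13 replicates 1 to 4 and -2.32, -2.77, -2.54 and -2.67 on E16 replicates 1 to 4. The stages overlapped across this whole range. Probes differ in their response, so only the change of this quantity between stages is read. It moved by -0.11 (95% confidence interval -0.41 to 0.18, two-sided exact permutation p = 0.37), which does not show that the members changed alike. Quantile normalization turned this gap to 0.43 (exact permutation p = 0.029, the smallest possible), and the deposited value table gave 0.35 (exact permutation p = 0.17). Both lie outside that interval, which holds for the first processing only.

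The gap between the members was set beside that of other tested miRNAs with a shared seed. A seed could be read from RefSeq for 130 of the 153 tested miRNAs, which gave 86 same-seed pairs over 15 seeds. Their gaps ran from 0.02 to 3.01 on the log2 scale with a median of 0.62. The gap of miR-26a and miR-26b, 0.11, was the 8th smallest. miR-103 and miR-107, intronic miRNAs of Pank genes, both fell, with log2 differences of -0.59 and -0.42 and a gap of 0.17. Under the all-probe percentile both signs turned, to 0.23 and 0.41, and neither call held. The miR-107 call was lost in 13 of 20 alternative settings in all, among them quantile normalization (-0.21), normexp correction, the deposited value table, the slide and replicate blocks, slide 2 alone, and leaving out any one of the 4 E13 arrays, E16 replicate 2 or E16 replicate 3. That of miR-103 was lost in 3 of 20, the other two being normexp correction and slide 2 alone. The largest gap was that of let-7b (2.66) and let-7e (-0.35). miR-101a and miR-101b, whose annotated starts give different bases 2 to 8, were at 0.55 (SE 0.38) and 0.22 (SE 0.37). These pairs share members and arrays, and the order is a description. Signal that a probe takes from a same-seed miRNA was not tested.

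**Figure D4:**
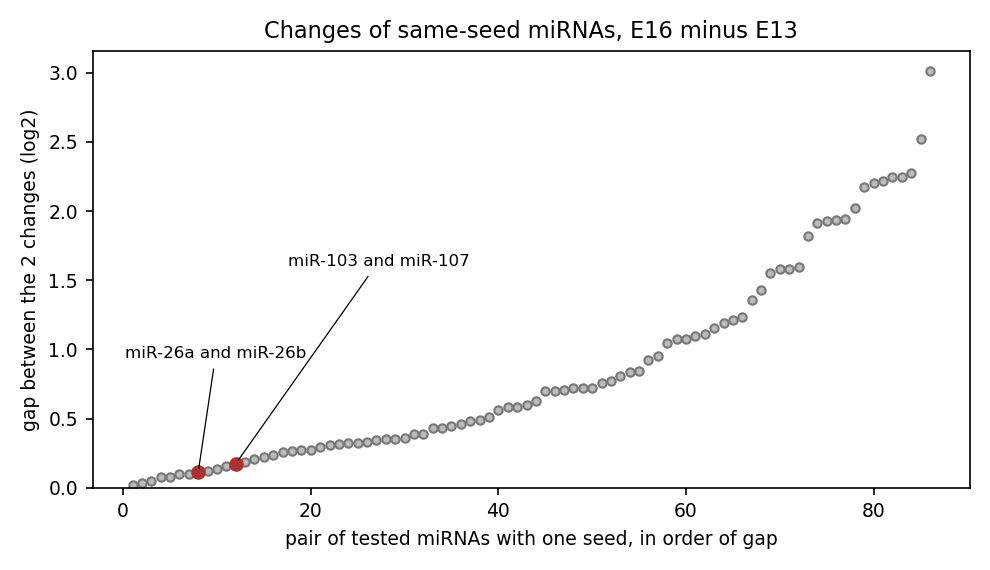
Gap between the log2 differences (E16 minus E13) of the 2 miRNAs in each of 86 pairs with a shared seed, in rising order. The pair miR-26a and miR-26b, with 0.11, lies 8th from the smallest, and miR-103 and miR-107, with 0.17, lie 12th.

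The signals of the 2 members resembled each other across arrays. How much signal the miR-26b probes, with 2 bases unpaired in miR-26a, take from the brighter miR-26a was not tested. With each miRNA centred on its mean over the 8 arrays, the root mean square difference between the members was 0.16 on the log2 scale. None of 74 other miRNAs detected on every array was nearer to miR-26b, against a median of 0.45. For miR-26a, 2 of 74 were nearer, miR-16 (0.14), a cell cycle regulator, and miR-181c (0.15), and the next after miR-26b was let-7i (0.18). miR-23b (0.17) and miR-181c (0.19) followed miR-26a in likeness to miR-26b. The log2 differences between stages of these miRNAs were 0.32 for miR-16, 0.52 for miR-181c, 0.46 for let-7i and 0.14 for miR-23b, and none passed the test. All of these passed as higher under the all-probe percentile. miR-181c passed in 7 of 20 alternative settings, let-7i in 3, miR-16 in 2 and miR-23b in 1, and the first 3 named did so without E16 replicate 4.

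With the stage means removed, so that only the spread between arrays of a stage counts, the members lay 0.15 apart. Then 13 miRNAs were nearer to miR-26a, led by miR-23b (0.07), miR-151-5p (0.09) and miR-16 (0.11). For miR-26b 3 were nearer, miR-23a (0.12), miR-23b (0.12) and miR-15b (0.13). Of these, miR-23a rose between stages (log2 difference 0.99, SE 0.24, limma adjusted p = 0.0099), a call lost under normexp correction (0.48, adjusted p = 0.33) and within slide 3 (0.44, adjusted p = 0.24). All these distances use 8 arrays and share the arrays' scaling.

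miRNA genes bound by REST, the repressor with which the products of the host genes act, were listed as miR-9, miR-9*, miR-124, miR-124*, miR-132, miR-212, miR-137 and miR-153. Of these 8, miR-132 and miR-212 were not detected. miR-153 was well above background on 4 E13 arrays and on no E16 array, so it entered the test through E13 alone. It is 1 of 5 such miRNAs among the 40 called lower. It was left out of the counts, a choice made after its values were seen. Of the other 5, 0 rose, 2 fell and 3 did not pass (limma, beside 26.1% lower among all tested). Their median log2 difference was -0.09 against -0.40 for all tested miRNAs. With miR-153, 3 of 6 fell and the median was -0.48, below that of all tested. The 26.1% and the -0.40 still include the 5 miRNAs detected on no E16 array, so the 2 sides are filtered differently. miR-124*, the opposite arm of the neuronal miR-124 hairpin, fell by 0.86 (SE 0.18), and miR-137 fell by 1.02 (SE 0.30). The miR-124* call was lost in 4 of 19 alternative settings, the all-probe percentile (-0.04), normexp correction, the deposited value table (-0.14) and slide 2 alone. That of miR-137 was lost in 11 of 18, among them the all-probe percentile, quantile normalization (-0.56), normexp correction, the total signal, slide 2 alone, the replicate block, and leaving out any one of the 4 E13 arrays or E16 replicate 2. Under the all-probe percentile the median without miR-153 turned to 0.73, with 2 higher (miR-9 and miR-9*), and under normexp correction 0 of the 5 passed.

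Other intronic miRNAs with protein-coding hosts were listed as miR-103, miR-107, miR-128, miR-153, miR-7a and miR-218. Without miR-153, 0 of 5 rose, 3 fell (beside 26.1% lower among all tested) and 2 did not pass. The median without miR-153 was -0.42, close to the -0.40 of all tested miRNAs. With miR-153, 4 of 6 fell and the median was -0.50. The miR-107 fall is among the 3, and its call was lost in 13 of 20 alternative settings. Under the all-probe percentile the median without miR-153 turned to 0.41 with 1 lower, and under normexp correction 0 passed. The largest of these falls was that of miR-7a (log2 difference -1.86, SE 0.18), a call lost in 1 of 18 alternative settings, normexp correction.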

How the data were processed

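Cyanine-3-labelled total RNA of the 8 samples was read on one-colour arrays, per the labels' protocols. Agilent Feature Extraction 10.7.3.1 wrote the scanner output, per the submitters' processing notes and the file headers. For each spot the deposited output holds a mean, a background and a processed (background-subtracted) intensity, a total intensity per miRNA, and other columns with flags of 0 or 1. A deposited table of log2 values covers 86 miRNAs. Its spots rank as the processed signals do on each array (Spearman correlation 1), every column has a median of 6.90, and how it was scaled is not stated. Stage and replicate were taken from the sample titles.

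Outlier spots were left out and the rest averaged per probe. A probe counted as well above background when a share of 0.5 of its spots did. Signals were divided by the array's 75th percentile over the 126 probes detected on all arrays, floored at percentile 1 of detected signals (log2 -5.96), and log2 was taken. The probe with the highest mean stood for its miRNA. The 153 miRNAs with a probe detected on at least 4 arrays were fitted with limma 3.58.1 in R 4.3.3 (two-sided, Benjamini-Hochberg, threshold 0.05), which was tested on simulated data. The number of arrays limits the precision.

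Named miRNAs were the members, the 3 most alike in profile to each, same-seed pairs (miR-103 with miR-107, miR-101a with miR-101b and the widest), 2 lists and cell type markers. The members and lists were chosen with earlier results of these data known. Alternatives were other scalings, background corrections, value sources, probe rules and filters, the slide and replicate number as blocks, single slides and leaving out each array. Slide row 2 held the E13 arrays and row 1 those of E16, so row and stage cannot be told apart.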

Additional observations from a re-analysis of the deposited data

Results flagged for a closer look

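E16 replicate 4 stood apart from the other E16 arrays in 2 values of the members. On the shorter miR-26a probe its scaled log2 signal was -2.30 against -1.87 to -1.80 on the other 3. In miR-26b its brighter probe exceeded the dimmer by 1.50 on the log2 scale against 0.81 to 0.82 on the others, with neither probe well above background there and a dimmer-probe mean of 2.93. With 14 groups of 4 arrays examined, chance flags about 1 in 20 groups.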

How the results depend on the processing

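Over the 10 alternatives that can move the difference, leave-one-out aside, miR-26a was higher at E16 in 10 and miR-26b in 9. Under the all-probe percentile, whose divisor lay near background, the differences were 1.30 (miR-26a) and 1.19 (miR-26b). Both passed, with 47 miRNAs higher and 16 lower. Median centring gave 0.52 for miR-26a, which then passed. Quantile normalization gave 0.82 for miR-26b, which passed, a gap of 0.43 between the members' changes, turned in sign, and 20 miRNAs higher. The deposited value table gave 0.75 for miR-26b, which passed, a gap of 0.35, also turned, and 11 miRNAs lower of 86 tested. Normexp correction, with its offset of 50, left 5 higher and 2 lower. It gave 0.37 for miR-26a (limma adjusted p = 0.41), 0.07 for miR-26b (limma adjusted p = 0.95) and a gap of -0.30. With the slide as a fixed block, where E16 replicate 1 does not enter the stage difference, miR-26a was at 0.38, miR-26b at 0.20 and the gap at -0.18. Among the 75 miRNAs detected on all 8 arrays, 9 were higher and 10 lower. There miR-26b was not among those tested, so it and the gap have no value. Within slide 2, 25 were lower, with miR-26a at 0.59 and miR-26b at 0.51. Within slide 3, 88 were lower, miR-26b turned to -0.26 and the gap was -0.32. The cause of these shifts was not tested.

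Leaving out each array in turn gave 0.40 to 0.61 for miR-26a (limma adjusted p 0.011 to 0.18, passing only without E16 replicate 4), 0.20 to 0.53 for miR-26b (0.063 to 0.46) and -0.20 to -0.05 for the gap. It gave 8 to 17 miRNAs higher, with 17 without E16 replicate 4, and 22 to 54 lower, with 22 to 24 without any one E13 array. The set tested differed too, with 131 to 148 miRNAs without an E13 array and 137 to 153 without an E16 array. With the replicate number as a block the differences were 0.48 for miR-26a (limma adjusted p = 0.11) and 0.37 for miR-26b (adjusted p = 0.27), with 10 miRNAs higher, 35 lower and a gap of -0.11, so the block changed no member's call. Same-numbered arrays showed little common deviation (correlations -0.10, 0.07, 0.27 and -0.15). No pairing by number was seen, but so few values cannot exclude one. Dim signal limits miR-26b, whose brighter probe was not well above background on E16 replicate 4.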
